A study of Homo sapiens with 8 samples.

Results

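PHGDH, PSAT1 and PSPH make serine from the glycolytic intermediate 3-phosphoglycerate in that order. The mitochondrial enzymes SHMT2, MTHFD2 and ALDH1L2 load the one-carbon unit of serine onto folate or act on folate that carries it. The transcription factor ATF4 is translated more when cells run short of amino acids, and it is known to bind at serine and one-carbon genes in other cell types. These 6 genes were taken as a set by their place in the pathway. Their members in the data are the peaks of ATF4 chromatin immunoprecipitation and sequencing (ChIP-seq) within 5 kb of 1 hg19 transcription start site (TSS) per gene. They came to 42 of the 312662 peaks in 8 deposited lists, 1 list per library.

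The libraries came from Nalm6 and SUPB15, both established cell lines of B-cell precursor acute lymphoblastic leukaemia. The 4 groups were Nalm6 with L-asparaginase, untreated Nalm6, SUPB15 with L-asparaginase and untreated SUPB15, with 2 libraries each. L-asparaginase, a leukaemia drug that breaks down asparagine outside the cell, was given at 1 IU/ml for 2 h. The design text speaks of independent experiments for Nalm6 and does not mention SUPB15, so p-values for SUPB15 measure the spread between libraries, which may be technical.

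The lists differed in length, most of all in SUPB15. A peak was listed in 11.8% and 13.2% of the 10-kb bins of the genome in Nalm6 with asparaginase, against 9.65% and 10.1% in untreated Nalm6. In SUPB15 the shares were 22.7% and 11.6% with asparaginase, against 2.97% and 2.92% untreated. Peaks of a line that shared at least 1 bp were merged into regions, of which the 6 genes had 5 of 57175 in Nalm6 and 7 of 102989 in SUPB15. A region was in all 4 lists of its line for 5 of those 5 in Nalm6 and for 4 of those 7 in SUPB15. Over all regions that share was 44.1% in Nalm6 and 4.63% in SUPB15.

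Promoter sequence was at hand for PSAT1, PHGDH and MTHFD2, 3 of the 6 genes, from RefSeq (GRCh38.p14, plus strand, 250 bases before to 50 after the gene start). They are shown because the summits at PSAT1 fell upstream of its TSS within the reach of such a window, whereas those at PHGDH and MTHFD2 fell beyond its end. Builds were not converted, so no summit is placed on a base of these sequences. Capitals mark matches on either strand to TGATGCA, the first bases of the C/EBP-ATF response element (CARE) that ATF4 is known to bind, or to CCAAT.
PSAT1 (chr9:78296875-78297174): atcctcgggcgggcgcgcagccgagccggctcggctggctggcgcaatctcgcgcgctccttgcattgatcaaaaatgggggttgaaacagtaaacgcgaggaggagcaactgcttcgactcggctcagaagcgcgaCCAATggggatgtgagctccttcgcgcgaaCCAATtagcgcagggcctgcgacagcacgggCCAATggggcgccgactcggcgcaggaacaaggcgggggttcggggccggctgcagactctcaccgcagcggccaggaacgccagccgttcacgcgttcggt
PHGDH (chr1:119711684-119711983): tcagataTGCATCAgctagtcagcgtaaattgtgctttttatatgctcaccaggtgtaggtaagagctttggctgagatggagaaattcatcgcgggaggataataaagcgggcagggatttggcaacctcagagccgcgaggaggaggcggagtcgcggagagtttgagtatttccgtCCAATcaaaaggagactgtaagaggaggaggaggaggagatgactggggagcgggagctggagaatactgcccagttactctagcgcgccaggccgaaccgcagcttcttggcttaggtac
MTHFD2 (chr2:74198365-74198664): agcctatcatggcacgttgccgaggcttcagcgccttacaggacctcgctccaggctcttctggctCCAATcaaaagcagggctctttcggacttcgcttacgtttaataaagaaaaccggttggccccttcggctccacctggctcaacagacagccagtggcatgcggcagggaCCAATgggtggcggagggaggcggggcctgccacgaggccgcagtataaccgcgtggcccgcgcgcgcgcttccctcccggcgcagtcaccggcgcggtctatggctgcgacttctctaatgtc

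The motifs were chosen with results of these data known, and a match is a description of the letters. TGATGCA was found in 2.63% of 35116 RefSeq windows of this length and 1 time in PHGDH, on the minus strand at −243 to −237 from the gene start. CCAAT was found in 34.6% of the windows, with 3 matches in PSAT1, 2 in MTHFD2 and 1 in PHGDH. The CARE core TGATGNAA (3.62% of windows) and the palindrome TGACGTCA (1.85%) had 0 matches in the 3 windows. A TGATGCA followed by A is also a TGATGNAA, so these counts can overlap. GC content was 66.0% in PSAT1, 52.7% in PHGDH and 62.7% in MTHFD2.

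**Figure D1:**
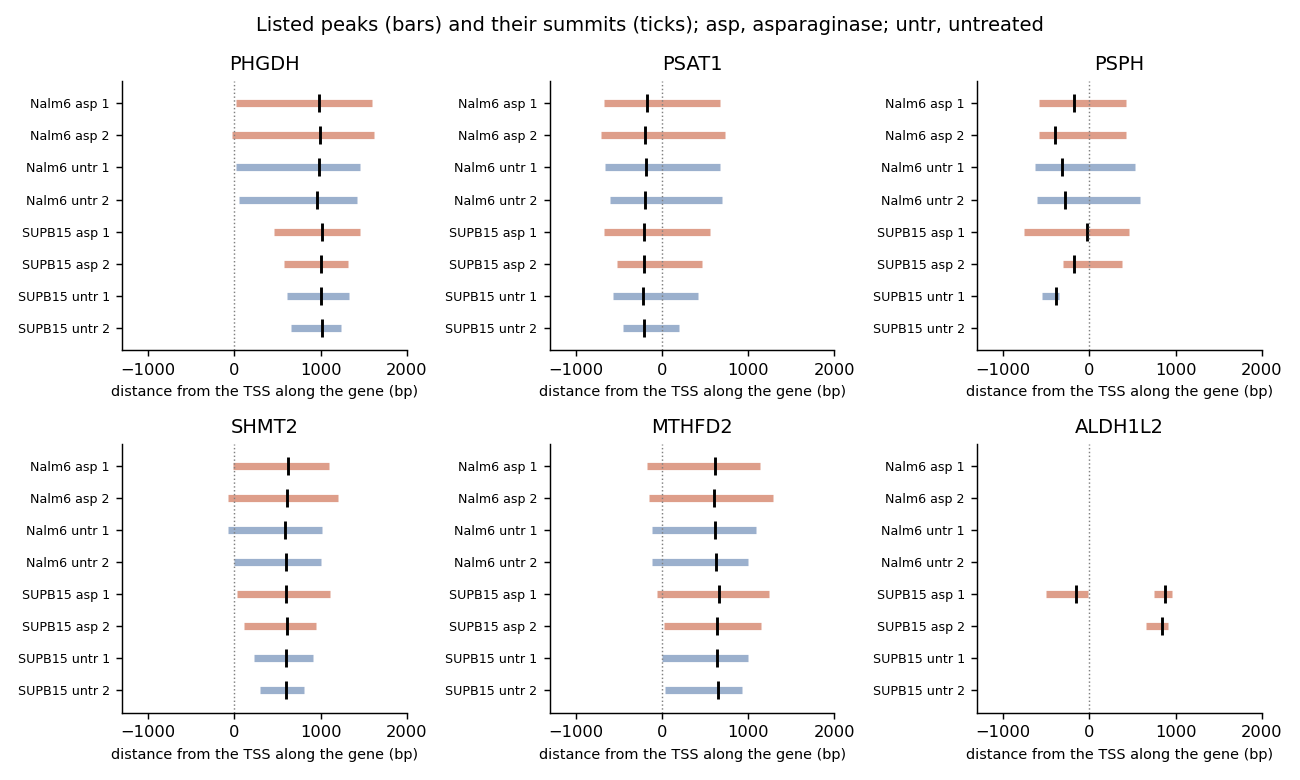
Listed peaks near each TSS, 1 row per library, against distance from the TSS along the gene in bp (0 is the TSS, positive is downstream). Bars span each peak and ticks mark its summit; the summits lie at 960 to 1017 bp at PHGDH, −221 to −172 bp at PSAT1, 589 to 620 bp at SHMT2 and 600 to 666 bp at MTHFD2.

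ATF4 summits at the 4 genes with a peak in every list stayed at nearly the same place in both lines, with and without the drug. At PHGDH (TSS at 120254419 on chromosome 1) the 8 summits lay 960 to 1017 bp downstream of the TSS, a range of 57 bp. At PSAT1 (TSS at 80912059 on chromosome 9) they lay upstream, from −221 to −172 bp, a range of 49 bp. At SHMT2 (TSS at 57623356 on chromosome 12) they lay 589 to 620 bp downstream, a range of 31 bp.

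At MTHFD2 (TSS at 74425690 on chromosome 2) the 8 summits lay 600 to 666 bp downstream, a range of 66 bp. PSPH (TSS at 56119297 on chromosome 7) was less sharply placed, with 7 summits from −400 to −31 bp and a range of 369 bp. In the RefSeq gene order the next gene on that upstream side is CCT6A, which encodes a chaperonin subunit, so the peak cannot be assigned to PSPH alone. No gene annotation of hg19 was used, so exons and introns are not given.

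For each peak the authors' lists give a fold enrichment, which is the peak caller's ratio of fragments at the summit to the local background, with its −log10 p and −log10 q. Ranks below are by −log10 q within a list, with 1 the strongest, and ranks from lists of different length show no change. The whole-number pileup of fragments at the summit and the local background were solved from fold and −log10 p. The summit signal is the pileup plus 1 divided by the genome background, the lowest local background in the list. The genome background was 2.21 and 2.33 fragments in Nalm6 with asparaginase, against 2.97 and 2.79 in untreated Nalm6. In SUPB15 it was 4.19 and 3.93 with asparaginase, against 4.08 and 3.90 untreated. Where groups are said below to stand apart or not to overlap, this is a description. The share of all regions that did so was not counted.

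PHGDH catalyses the first and committing step of serine synthesis. In Nalm6 its region spanned chr1:120254389-120256045. With asparaginase its peak there had folds of 10.8 and 9.51, −log10 p of 253 and 237, −log10 q of 247 and 232, and ranks of 103 and 223. Untreated Nalm6 had folds of 12.8 and 12.4, −log10 p of 229 and 234, −log10 q of 223 and 228, and ranks of 37 and 47. The fold was thus lower with asparaginase while both −log10 q values with asparaginase were above both untreated ones.

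The summit signal at PHGDH in Nalm6 was 175 and 169 with asparaginase, against 106 and 118 untreated. Signal was higher with the drug while fold was lower. The local background that divides the fold was 34.9 and 40.3 fragments with asparaginase, against 23.7 and 25.5 untreated.

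In SUPB15 the PHGDH region spanned chr1:120254880-120255878. With asparaginase its peak had folds of 16.3 and 19.7, −log10 p of 273 and 236, −log10 q of 267 and 230, and ranks of 38 and 74. Untreated SUPB15 had a fold of 14.7 in both libraries, −log10 p of 118 and 88.1, −log10 q of 113 and 82.9, and ranks of 104 and 132. The groups did not overlap in fold, −log10 p or −log10 q, and the fold of 19.7 was the highest at the 6 genes. The summit signal was 78.5 and 65.2 with asparaginase, against 35.5 and 26.9 untreated.

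PSAT1 is the transaminase of the second step. In Nalm6 its region spanned chr9:80911355-80912791. With asparaginase the peak had folds of 9.04 and 8.18, −log10 p of 230.4 and 217, −log10 q of 225 and 212, and ranks of 201 and 354. Untreated Nalm6 had folds of 10.8 and 10.9, −log10 p of 196 and 206, −log10 q of 191 and 200.4, and ranks of 72 and 77. As at PHGDH, fold was lower and −log10 q higher with the drug.

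The summit signal at PSAT1 in Nalm6 was 179 and 171 with asparaginase, against 100.3 and 112 untreated. The local background was 42.7 and 47.8 fragments with asparaginase, against 26.7 and 27.5 untreated. Both quantities stood apart between the groups.

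In SUPB15 the PSAT1 region spanned chr9:80911391-80912622. The asparaginase libraries had folds of 11.8 and 14.9, −log10 p of 237 and 219, −log10 q of 231 and 213, and ranks of 134 and 96. Untreated SUPB15 had folds of 11.4 and 9.24, −log10 p of 95.5 and 63.0, −log10 q of 90.4 and 58.1, and ranks of 181 and 263. Fold, −log10 p and −log10 q stood apart between the groups. The summit signal was 81.6 and 69.8 with asparaginase, against 33.1 and 25.6 untreated.

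PSPH is the phosphatase that releases serine, and its peak was far weaker. In Nalm6 its region spanned chr7:56118713-56119930. With asparaginase the peak had folds of 6.68 and 6.98, −log10 p of 24.4 and 26.7, −log10 q of 21.2 and 23.6, and ranks of 9314 and 10124. Untreated Nalm6 had folds of 6.61 and 6.48, −log10 p of 28.7 and 29.1, −log10 q of 25.2 and 25.7, and ranks of 5096 and 5781. The peak lay within the strongest 21.5% and 20.7% of the lists with asparaginase, against 14.6% and 15.7% untreated.

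The summit signal at PSPH in Nalm6 was 20.4 and 20.6 with asparaginase, against 18.5 and 20.4 untreated, and the groups overlapped. In SUPB15 with asparaginase the peak had folds of 3.25 and 3.70, −log10 p of 8.42 and 9.08, −log10 q of 5.67 and 5.98, and ranks of 29273 and 14206. In untreated SUPB15, replicate 1 listed a peak with a fold of 3.29, a −log10 p of 7.44, a −log10 q of 4.05 and a rank of 6713. Replicate 2 listed none. The untreated peak, at chr7:56119652-56119851, shared no base with that of asparaginase replicate 2, at chr7:56118924-56119607. The 2 were merged only through the wider peak of asparaginase replicate 1, at chr7:56118838-56120062. The summit signal was 7.16 and 6.87 with asparaginase, against 6.13 in untreated replicate 1. The peaks listed at PSPH in SUPB15 were thus weak with or without the drug.

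SHMT2 moves the one-carbon unit of serine onto folate in mitochondria. In Nalm6 its region spanned chr12:57623278-57624554. With asparaginase the peak had folds of 13.7 and 12.5, −log10 p of 269 and 273, −log10 q of 263 and 267, and ranks of 49 and 58. Untreated Nalm6 had folds of 13.3 and 13.4, −log10 p of 153 and 172, −log10 q of 148 and 167, and ranks of 155 and 147. By this rank SHMT2 stood above the other 4 genes listed in Nalm6 in both asparaginase lists and below MTHFD2, PHGDH and PSAT1 in both untreated lists. Ranked by fold it led them in all 4 Nalm6 lists, at 1086 and 1775 with asparaginase, against 279 and 358 untreated.

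The summit signal at SHMT2 in Nalm6 was 162 and 163 with asparaginase, against 68.0 and 81.7 untreated, the widest gap between the groups at any of the 6 genes in this line. In SUPB15 its region spanned chr12:57623382-57624467. With asparaginase the peak there had folds of 11.6 and 14.9, −log10 p of 267 and 285, −log10 q of 260.5 and 278, and ranks of 56 and 16. Untreated SUPB15 had folds of 10.7 and 10.8, −log10 p of 110.5 and 104, −log10 q of 105 and 98.7, and ranks of 124 and 80. The summit signal there was 93.1 and 91.9 with asparaginase, against 40.4 and 39.5 untreated, and the groups did not overlap.

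MTHFD2 oxidises the folate carrying that unit in mitochondria. By −log10 q it had the best rank of the 6 genes in 6 of the 8 lists, and by fold in 2, both of untreated SUPB15. In Nalm6 its region spanned chr2:74425518-74426977. With asparaginase the peak had folds of 10.2 and 9.25, −log10 p of 249 and 235, −log10 q of 244 and 230, and ranks of 115 and 233. Untreated Nalm6 had folds of 12.5 and 12.4, −log10 p of 246 and 258, −log10 q of 240 and 251, and ranks of 19 and 23. The fold was lower with the drug, and −log10 q overlapped between the groups.

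The summit signal at MTHFD2 in Nalm6 was 179 and 170.3 with asparaginase, against 115 and 129 untreated. The local background was 37.8 and 41.9 fragments with asparaginase, against 26.3 and 28.0 untreated. Signal and background both stood apart between the groups.

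In SUPB15 the MTHFD2 region spanned chr2:74425637-74426938. The asparaginase libraries had folds of 12.0 and 16.1, −log10 p of 277 and 312, −log10 q of 271 and 304, and ranks of 30 and 4. Untreated SUPB15 had folds of 15.6 and 16.7, −log10 p of 258 and 230, −log10 q of 252 and 224, and ranks of 7 and 9. The peak was thus among the 10 strongest of both untreated lists. The summit signal was 95.0 and 96.8 with asparaginase, against 77.9 and 69.8 untreated, a narrower gap than at PHGDH, PSAT1 or SHMT2 in this line.

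ALDH1L2 oxidises formyl-folate in mitochondria (TSS at 105478341 on chromosome 12). It was the only one of the 6 genes with a gained region, meaning a peak in both asparaginase lists of a line and in neither untreated list. The region lay in SUPB15 at chr12:105477387-105477680, with summits 881 and 839 bp downstream of the TSS. Its peaks had folds of 3.38 and 4.04, −log10 p of 7.03 and 9.19, −log10 q of 4.43 and 6.09, and ranks of 43227 and 13994. These are weak peaks, of 21 and 23 fragments at the summit and a summit signal of 5.25 and 6.11.

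Asparaginase replicate 1 of SUPB15 also listed a peak at −151 bp from the ALDH1L2 TSS, with a fold of 3.75, a −log10 p of 8.46, a −log10 q of 5.70, a rank of 29109 and a summit signal of 5.73. Gained regions were 1 of 7 at the 6 genes in SUPB15, against 16.7% of all its regions, and 0 of 5 in Nalm6, against 12.3%. No Nalm6 library listed a peak within 5 kb of the ALDH1L2 TSS.

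Absence from a list is not a signal of 0. Where the local background equalled the genome background, SUPB15 lists held peaks from a summit signal of 3.10 and 3.31 with asparaginase, against 3.68 and 3.59 untreated. In Nalm6 they began at 4.98 and 4.29 with asparaginase, against 3.70 and 4.30 untreated. The ALDH1L2 peaks stood less than 3 units above these limits.

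**Figure D2:**
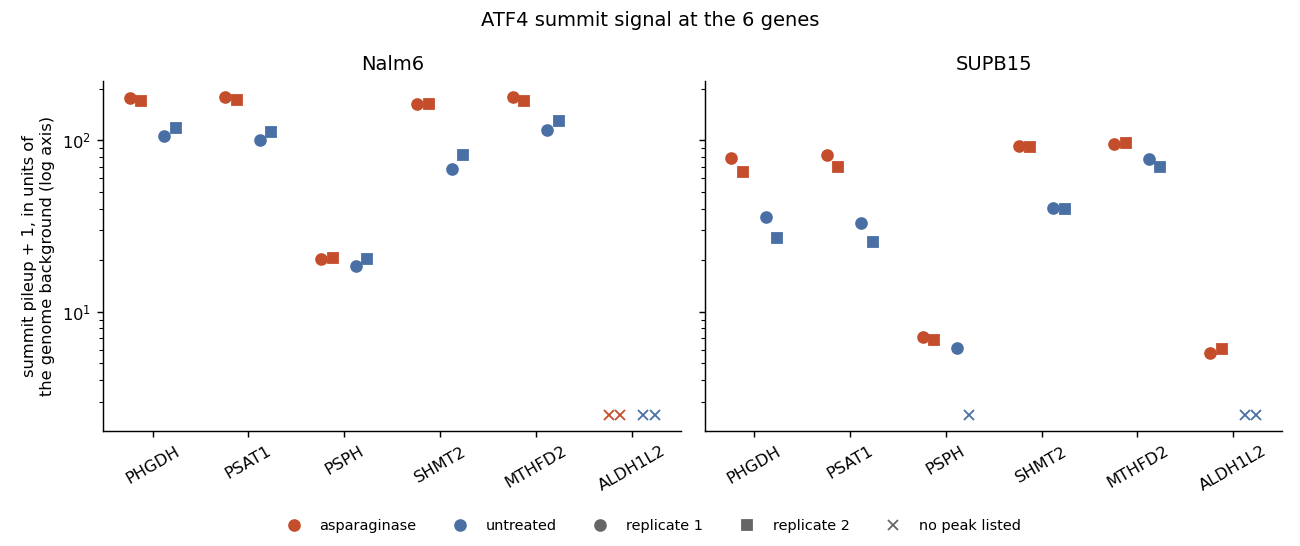
Summit signal of the strongest peak at each gene, in units of the genome background on a log axis, with asparaginase left of untreated. Each point is a library and crosses mark lists with no peak, which carry no value; PHGDH, PSAT1, SHMT2 and MTHFD2 lie above PSPH in the 7 libraries that listed it and above ALDH1L2 in the 2 that listed it.

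The order of the genes by summit signal differed between the groups. In Nalm6 with asparaginase PSAT1 averaged 175 ± 5.46, MTHFD2 175 ± 6.06, PHGDH 172 ± 4.71, SHMT2 163 ± 1.25 and PSPH 20.5 ± 0.15 (SD, n = 2 each). PSAT1, MTHFD2 and PHGDH overlapped. In untreated Nalm6 MTHFD2 averaged 122 ± 9.89, PHGDH 112 ± 8.19, PSAT1 106 ± 7.92, SHMT2 74.9 ± 9.73 and PSPH 19.5 ± 1.36 (SD, n = 2 each). Neighbours overlapped as far as PSAT1, and SHMT2 stood below them.

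In SUPB15 with asparaginase MTHFD2 averaged 95.9 ± 1.26, SHMT2 92.5 ± 0.809, PSAT1 75.7 ± 8.37 and PHGDH 71.8 ± 9.42 (SD, n = 2 each). In untreated SUPB15 MTHFD2 averaged 73.8 ± 5.77, SHMT2 40.0 ± 0.658, PHGDH 31.2 ± 6.08 and PSAT1 29.4 ± 5.25 (SD, n = 2 each). PHGDH and PSAT1 overlapped in both groups, and the other neighbours did not.

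The lists had an upper limit that touches these comparisons. No peak of any list had more than 400 fragments at its summit, and 4 and 9 peaks in the Nalm6 asparaginase lists and 4 in SUPB15 asparaginase replicate 1 had exactly 400. In Nalm6 with asparaginase the pileup was 386 and 392 at PHGDH, 394 and 398 at PSAT1, 356 and 380 at SHMT2, and 394 and 396 at MTHFD2. In untreated Nalm6 it was 314 and 327 at PHGDH, 297 and 310 at PSAT1, 201 and 227 at SHMT2, and 342 and 360 at MTHFD2. Signals close to the limit had little room to be higher, and the cause of the limit was not tested.

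In SUPB15 with asparaginase the pileup was 328 and 255 at PHGDH, 341 and 273 at PSAT1, 389 and 360 at SHMT2, and 397 and 379 at MTHFD2. In untreated SUPB15 it was 144 and 104 at PHGDH, 134 and 99 at PSAT1, 164 and 153 at SHMT2, and 317 and 271 at MTHFD2. MTHFD2 and SHMT2 with asparaginase were the closest to 400 in this line.

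**Figure D3:**
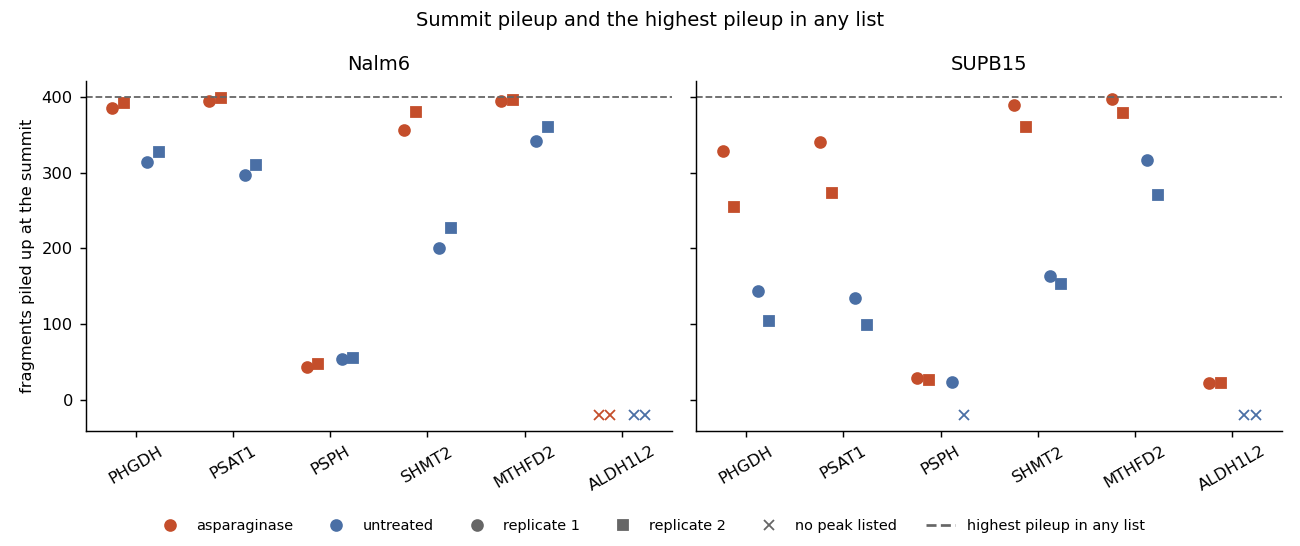
Fragments at the summit of the strongest peak of each gene, with asparaginase left of untreated, and the highest pileup of any list as a dashed line at 400. Crosses mark lists with no peak, which carry no value; in Nalm6 with asparaginase PHGDH, PSAT1, SHMT2 and MTHFD2 lie at 356 to 398.

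The change in summit signal was tested with limma over the regions found in all 4 lists of a line, with p-values adjusted by Benjamini-Hochberg over all of them. Changes were centred on the median change, which was 0.37 on the log2 scale in Nalm6 and 0.62 in SUPB15, so each is relative to the typical region. With asparaginase 22.7% of 25213 Nalm6 regions were called higher and 8.64% lower, and 20.5% of 4765 SUPB15 regions were called higher and 5.96% lower. Without centring 9762 (38.7%) were higher and 100 lower in Nalm6, and 2334 (49.0%) higher and 4 lower in SUPB15. Quantile normalization gave 4665 higher and 4742 lower in Nalm6, and 736 higher and 693 lower in SUPB15.

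In Nalm6, SHMT2 was called higher with asparaginase, and it was 1 of 5 regions tested at these genes. Its log2 change was 0.76 ± 0.16 (SE; limma, adjusted p = 2.99e-05). PSAT1 had a change of 0.36 ± 0.16 (limma, adjusted p = 0.0709) and PHGDH of 0.26 ± 0.16 (limma, adjusted p = 0.221). MTHFD2 had 0.15 ± 0.16 (limma, adjusted p = 0.515) and PSPH −0.29 ± 0.20 (limma, adjusted p = 0.287).

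With a library left out, 1 group has 1 library that is assumed to vary like the other group. The change at SHMT2 was then 0.70 to 0.80. Its call was lost without asparaginase replicate 1 (0.71; limma, adjusted p = 0.175) or replicate 2 (0.79; limma, adjusted p = 0.122). It was kept without untreated replicate 1 (0.70) or replicate 2 (0.80). PSAT1 then had 0.36 and 0.35 and PHGDH 0.25 and 0.24, near their values with all libraries. Their SE was then 0.058 to 0.061, against 0.16 with all libraries, and both went from not called to called higher. The 1 untreated library left gives no spread of its own, so these calls are not read as results. With the deposited fold in place of the signal SHMT2 had −0.16 (limma, adjusted p = 0.275), and PHGDH, PSAT1 and MTHFD2 were called lower. Without centring SHMT2, PSAT1, PHGDH and MTHFD2 were all called higher, by 1.12, 0.73, 0.62 and 0.51, and PSPH had 0.07 (limma, adjusted p = 0.815).

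In SUPB15, 3 of the 4 regions tested were called higher with asparaginase. The log2 change was 0.75 ± 0.22 at PSAT1 (SE; limma, adjusted p = 0.00800), 0.59 ± 0.17 at SHMT2 (limma, adjusted p = 0.00845) and 0.59 ± 0.21 at PHGDH (limma, adjusted p = 0.0309). MTHFD2 had −0.24 ± 0.12 (limma, adjusted p = 0.124). Without centring all 4 were called higher, as were 49.0% of all SUPB15 regions. The uncentred change was 1.37 at PSAT1, 1.21 at SHMT2, 1.21 at PHGDH and 0.38 at MTHFD2 (limma, adjusted p = 0.00582 at MTHFD2).

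Each of these 3 calls was lost when any 1 of the 4 SUPB15 libraries was left out (limma, adjusted p = 0.0553 to 0.581). The changes then ran from 0.61 to 0.85 at PSAT1, 0.42 to 0.70 at SHMT2 and 0.43 to 0.71 at PHGDH. Over all regions 392 were called higher without asparaginase replicate 1 and 1063 without replicate 2. Without untreated replicate 1, 6 were called higher, and without untreated replicate 2, 0 were (limma; 412 had an unadjusted p under 0.05). Other settings also ended these calls. At the 1642 regions with −log10 q of at least 10 in every library, whose median change of 1.09 was removed, PSAT1 had 0.28 (limma, adjusted p = 0.325), SHMT2 0.12 (limma, adjusted p = 0.593) and PHGDH 0.12 (limma, adjusted p = 0.703). With the deposited fold they had −0.057, −0.13 and −0.14, none of them called. PHGDH lost its call under quantile normalization as well (limma, adjusted p = 0.119).

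These sites were among the strongest, where changes differed from those of the typical region. By mean signal the lowest of PHGDH, PSAT1, SHMT2 and MTHFD2 was at percentile 99.5 of the tested Nalm6 regions (SHMT2) and 97.1 of the SUPB15 regions (PSAT1). Among the strongest 10% of regions the median log2 change was 0.87 in Nalm6, with 69.2% called higher, and 0.52 in SUPB15, with 43.0% called higher. The 4 genes were below that median in Nalm6, and MTHFD2 alone was below it in SUPB15.

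A correction for the limit was added after the data had been seen. It treats the 400 fragments as places filled at random, an assumption that was not tested. The log2 change in Nalm6 was then 1.72 at SHMT2, 1.70 at PSAT1, 1.14 at PHGDH and 1.04 at MTHFD2, all called higher as were 22.9% of all regions, and −0.31 at PSPH. In SUPB15 it was 1.81 at SHMT2, 1.42 at PSAT1 and 1.15 at PHGDH, all called higher as were 20.1% of all regions, and 0.81 at MTHFD2 (limma, adjusted p = 0.128).

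**Figure D4:**
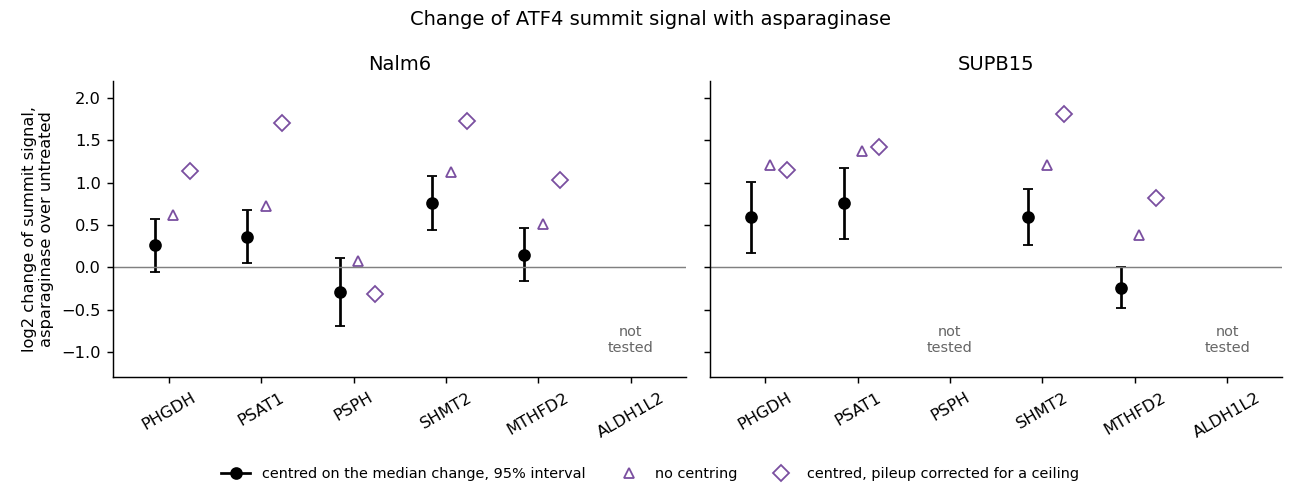
Log2 change of summit signal, asparaginase over untreated, by gene and line, with black points centred on the median change of all regions (bars are 95% intervals from limma) and open marks without centring and with the pileup corrected for the limit. The centred values run from −0.29 at PSPH to 0.76 at SHMT2 in Nalm6 and from −0.24 at MTHFD2 to 0.75 at PSAT1 in SUPB15; both kinds of open mark lie higher at PHGDH, PSAT1, SHMT2 and MTHFD2.

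Whether the lines responded differently was tested at the 3812 regions listed in all 8 libraries, 4 of them at these genes. SUPB15 minus Nalm6, the log2 change differed by 0.55 at PSAT1 (95% interval 0.10 to 1.00; limma, unadjusted p = 0.0166, adjusted p = 0.183) and by 0.49 at PHGDH (0.044 to 0.94; limma, unadjusted p = 0.0313, adjusted p = 0.271). It differed by −0.01 at SHMT2 (−0.45 to 0.43; limma, adjusted p = 0.989) and by −0.23 at MTHFD2 (−0.57 to 0.11; limma, adjusted p = 0.665). With the pileup corrected for the limit of 400 the difference was −0.092 at PSAT1 (limma, adjusted p = 0.969) and 0.20 at PHGDH (limma, adjusted p = 0.942). None of the 4 was called in either fit, against 0.525% of all regions called higher in SUPB15 and 4.56% lower before the correction.

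Peaks at the 4 strong genes were listed wider with asparaginase in both lines, though the groups overlapped at PSAT1 in SUPB15. How many other regions were also listed wider was not counted, so the widths show nothing particular to these genes. In Nalm6 the width was 1589 and 1657 bp at PHGDH with asparaginase, against 1449 and 1369 bp untreated, and 1348 and 1437 bp at PSAT1 with asparaginase, against 1335 and 1295 bp untreated. It was 1113 and 1277 bp at SHMT2 with asparaginase, against 1097 and 1018 bp untreated, and 1310 and 1436 bp at MTHFD2 with asparaginase, against 1213 and 1122 bp untreated. The median width of all Nalm6 peaks was 453 and 453 bp with asparaginase, against 485 and 493 bp untreated. Such medians take in every peak of lists of different length, not the same regions, so they are no background for these widths.

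In SUPB15 the width was 999 and 740 bp at PHGDH with asparaginase, against 722 and 583 bp untreated, and 1232 and 988 bp at PSAT1 with asparaginase, against 992 and 645 bp untreated. It was 1086 and 836 bp at SHMT2 with asparaginase, against 680 and 518 bp untreated, and 1302 and 1126 bp at MTHFD2 with asparaginase, against 995 and 891 bp untreated. The median over all peaks, again not of the same regions, was 279 and 273 bp with asparaginase, against 302 and 277 bp untreated. Width follows from the caller's threshold and was not tested.

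Beyond the 5-kb limit near SHMT2, the nearest listed peak was a further strong one in 7 of the 8 lists. Its summit there lay 10599 to 10649 bp downstream of the TSS. Its fold was 9.88 and 9.04 in Nalm6 with asparaginase, against 10.2 in untreated Nalm6 replicate 2, and 10.2 and 11.6 in SUPB15 with asparaginase, against 10.0 and 9.20 untreated. In untreated Nalm6 replicate 1 the nearest listed peak outside the limit was another one, of fold 2.43 with its summit at 9758 bp. Only the nearest peak of each list was taken, so whether that list also held the strong peak was not looked up. The next gene downstream in the RefSeq order is COXFA4L2, so the strong peak cannot be assigned to SHMT2 alone.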

How the data were processed

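ATF4 ChIP-seq was deposited as 1 peak list per library for 8 libraries, so peaks were not pooled over replicates. Per the submitters' processing notes, BWA, MACS2, DiffBind and the build hg19 were used; their versions and settings, and any control library, are not stated there. Per the layout of the deposited lists, the fold enrichment is MACS2's ratio of summit to local background, and −log10 p and −log10 q values are the authors' as deposited. Read totals are unknown.

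Pileup and local background were solved from fold and −log10 p (pileup whole, tolerance 0.001 in −log10 p, 100% of peaks solved). The limma 3.58.1 trend fit (R 4.3.3, threshold 0.05) used log2 summit signal of regions in all lists compared, with no covariates, and was tested on simulated data; tables were made with Python 3.11.15 and pandas 2.3.3. Regions missing from a list were not tested and no value was imputed. Alternatives were the distance limit, stricter −log10 q, equally long lists, reciprocal overlap, scaling, fold in place of signal, leaving out libraries, a replicate block and ranking by fold; a correction for the upper limit and centring on the strongest regions were added after seeing the data.

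Every peak at the 6 genes is named whatever its values. The members, lists and motifs were chosen with earlier results of these data known. Other folate and serine genes were not analysed here, since no hg19 annotation was used. All 6 genes matched the RefSeq gene table and 3 its promoter table. TSS positions came with the choice of genes, and the strands of PSPH, SHMT2 and ALDH1L2 from general knowledge.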

Additional observations from a re-analysis of the deposited data

How the results depend on the processing

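The count of gained regions in SUPB15, 1 at ALDH1L2, became 0 at −log10 q of at least 10 and in equally long lists. At a reciprocal overlap of 50% it was 2, with PSPH added. There the untreated peak of 200 bp covered too little of the 1225-bp peak of asparaginase replicate 1. With a library left out the count was 1 to 2. Nalm6 stayed at 0 under all of these. The share of all regions gained was counted only in the main setting (16.7% in SUPB15, 12.3% in Nalm6), so these other counts have no background. Of the 5 Nalm6 regions tested, 1 was called. The count was 3 at −log10 q of at least 10 (3619 of 12081 regions higher), 4 without centring (38.7% of all regions higher) and 2 with quantile normalization (18.5% higher). It was 3 lower with the deposited fold (4.08% lower), 4 higher with the corrected pileup (22.9% higher) and 4 lower centred on the strongest 10% (74.0% lower). With a library left out calls went either way, lost without an asparaginase library and added without an untreated one. The log2 change at SHMT2 was then 0.70 to 0.80. Of the 4 SUPB15 regions 3 were called. The count was 4 higher without centring (49.0% of all regions higher), 2 higher with quantile normalization (15.4% higher) and 3 higher with the corrected pileup (20.1% higher). The count was 1, MTHFD2 as lower, at −log10 q of at least 10 (31.3% of all regions lower), with the deposited fold (11.5% lower) and centred on the strongest 10% (44.2% lower), and 0 with any library left out. The difference between lines, 0 called, was 1 (PSAT1, higher in SUPB15) at −log10 q of at least 10 (0.552% of all regions higher, 3.78% lower).

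The sign turned in these cases. With the deposited fold the log2 change in Nalm6 was −0.45 at PHGDH, −0.47 at PSAT1, −0.16 at SHMT2 and −0.50 at MTHFD2, and in SUPB15 −0.14 at PHGDH, −0.057 at PSAT1 and −0.13 at SHMT2. Centred on the strongest 10%, Nalm6 had −0.61 at PHGDH, −0.51 at PSAT1, −0.11 at SHMT2 and −0.72 at MTHFD2. MTHFD2 had −0.0044 in Nalm6 with quantile normalization, and in SUPB15 0.38 without centring, 0.058 with quantile normalization and 0.81 with the corrected pileup. PSPH in Nalm6 had 0.075 without centring. The difference between lines at SHMT2, −0.01, was 0.13 at −log10 q of at least 10, 0.09 without centring, 0.11 with quantile normalization, 0.10 with fold, 0.28 with the corrected pileup, 0.035 centred on the strongest 10% and −0.20 to 0.18 with a library left out. That at MTHFD2 was 0.070 with quantile normalization and that at PSAT1 −0.092 with the corrected pileup. The cause was not tested.

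With a replicate block the difference between lines was called at 1 region (PSAT1; limma, adjusted p = 0.0412), MTHFD2 in SUPB15 was called lower (limma, adjusted p = 6.27e-04), and no other call changed. Same-numbered libraries share only a number, and their deviations correlated at 0.033 in Nalm6 and 0.086 in SUPB15. Ranked by fold, 30 of 41 ranks changed by over 1.5 times. With 2 libraries a group, lists cut at a threshold and no read totals, signals below listing are unknown.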
